A study of Mus musculus with 4 samples.

Results

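The Hox genes and their Meis, Pbx and Pknox cofactors were followed in bulk RNA of mouse dorsal root ganglia, which house the cell bodies of the body's sensory neurons. Members were all rows of the expression matrix named as a numbered Hox gene of cluster A, B, C or D, or as a numbered Meis, Pbx or Pknox gene. They came to 40 of 14405 genes: 29 protein-coding Hox genes, the antisense transcripts Hoxa11os and Hoxb5os, 3 Meis, 4 Pbx and 2 Pknox genes. Of the 39 protein-coding Hox genes in the GENCODE M21 annotation, the other 10 had no row and were not analysed here.

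The 2 groups were wild type mice (2 samples) and mice labelled Prdm12-/Fl; AvilCreERT2/+ (2 samples), all aged 10 weeks and of mixed strain. The mutants carried 1 null and 1 floxed allele of Prdm12, which encodes a zinc finger regulator needed to form pain neurons. They also carried 1 copy of a tamoxifen-inducible Cre recombinase driven from Avil, a sensory neuron gene, which limits excision to cells that use Avil while the inducer is present. The labels give neither the spinal levels of the ganglia nor whether each sample was 1 animal. Values are FPKM, fragments scaled to transcript length and library size, which allow levels of different genes to be compared.

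Hox genes encode homeodomain transcription factors that lie in 4 clusters, and in the embryo their order along a cluster matches where along the body axis they are first used. Low paralog numbers mark the hindbrain and neck, middle numbers the forelimb and trunk levels, and the highest numbers the lumbar, sacral and tail levels. Neurons and connective tissue keep part of this code into adult life. Pbx, Meis and Pknox proteins, homeodomain factors of the TALE class, bind DNA together with Hox proteins and sharpen their choice of sites.

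In the order wild type 1, wild type 2, mutant 1 and mutant 2, Prdm12 measured 7.58, 10.7, 1.05 and 1.5 FPKM. Other values are given in this order, the wild types before the mutants. All 12 neuronal markers had rows, and their summed level was 3710 to 5950 FPKM over the 4 libraries. Of 10 markers of spinal cord cells, Gfap and Aqp4 had rows (the motor neuron and oligodendrocyte markers were not analysed here), and these summed to 3.37 to 7.13 FPKM. Wild type 2 was the one library with Xist (21.1 FPKM, against at most 0.0295 FPKM in the other 3) and without Y-linked Ddx3y (listed at 0). Skeletal muscle markers, 11 of 14 with rows, summed to 214 and 1720 FPKM in the wild types, against 94.8 and 3630 FPKM in the mutants, with wide gaps inside each genotype.

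Hox transcripts of paralog numbers from 1 (Hoxd1) to 11 (Hoxa11) were read in each library. Hoxa10, a lumbar-level gene, had the highest mean of the Hox genes at 24.4 FPKM, above 75.2% of all genes in the matrix. It was followed by Hoxc6, a forelimb-level gene, at 17.9 FPKM, and by Hoxa9 (14.5 FPKM) and Hoxc9 (13.3 FPKM), whose paralog group is used in the thorax. Next came Hoxc10, which acts in lumbar motor neurons, and Hoxb6, both at 12.6 FPKM. At the low end stood Hoxd10 (0.865 FPKM), Hoxd3 (0.837 FPKM) and Hoxa11 (0.791 FPKM).

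**Figure D1:**
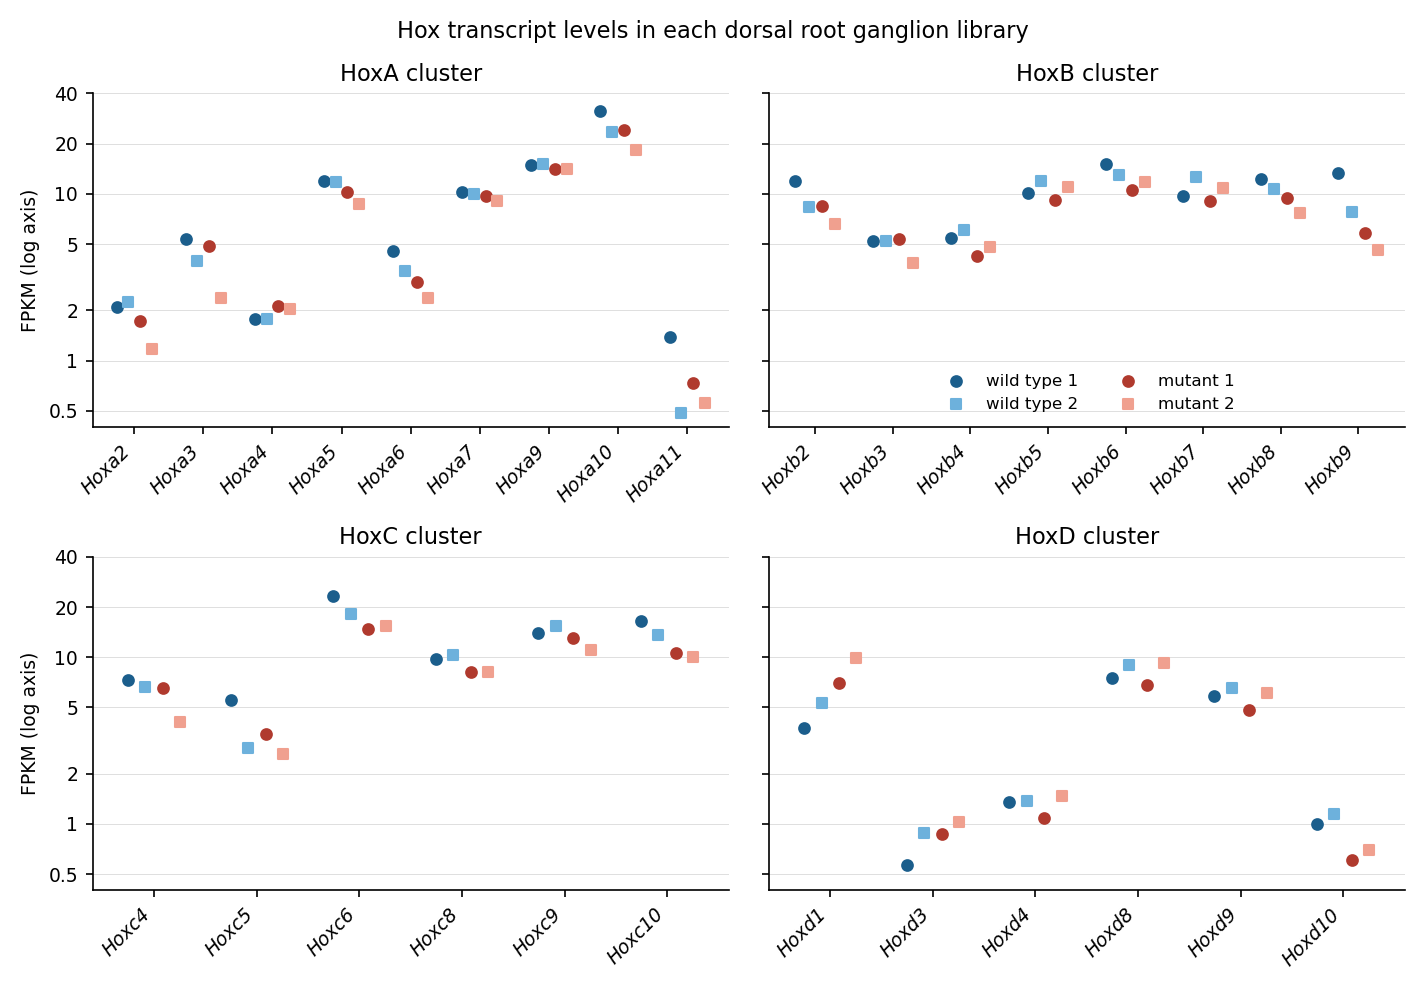
FPKM (log axis) of the 29 Hox genes in the 2 wild type (blue) and 2 mutant (red) libraries, ordered by cluster and paralog number; each point is 1 library. Hoxa10 is the highest gene and Hoxa2 and Hoxa4 are low in cluster A, Hoxd3, Hoxd4 and Hoxd10 lie near 1 FPKM, and Hoxd1 stands above the wild types in both mutants while Hoxb9 stands below.

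The clusters ended at different paralogs. At 1 FPKM or more in all 4 libraries, cluster A reached paralog 10, cluster B paralog 9, cluster C paralog 10 and cluster D paralog 9. Of the annotated cluster B genes only Hoxb1 and Hoxb13 had no row, so none lies between Hoxb9 and Hoxb13. The end of cluster B at paralog 9 is thus partly set by its gene content. Hoxa11 measured 1.39 and 0.483 FPKM in the wild types, against 0.731 and 0.554 FPKM in the mutants. One wild type library was thus above 1 FPKM and the other below both mutants. Hoxd10 measured 1.00 and 1.15 FPKM in the wild types, against 0.609 and 0.696 FPKM in the mutants.

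The classes held unlike numbers of genes: 6 (paralogs 1 to 3), 7 (4 to 5), 8 (6 to 8), 4 (9) and 4 (10 to 11). Paralogs 6 to 8, the class of forelimb and upper trunk levels, gave the largest share of summed Hox FPKM in every library. It was 35.2% and 36.5% in wild type and 34% and 37.3% in the mutants. This class also had the most genes, so its share does not show a greater use of these levels. Paralog 9 gave 18.2% and 18.8% in wild type, and 17.9% and 18.0% in the mutants. Paralogs 10 to 11 gave 19.1% and 16.1% in wild type and 17.2% and 14.8% in the mutants. Shares of this lumbar class overlapped between the groups, and within each group the first library was higher. Paralogs 4 to 5 gave 16.5% to 17.7% in the 4 libraries. All 5 classes were thus read in each of the 4 libraries. The spinal levels of the ganglia are not in the labels, and these shares do not show which levels were pooled.

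**Figure D2:**
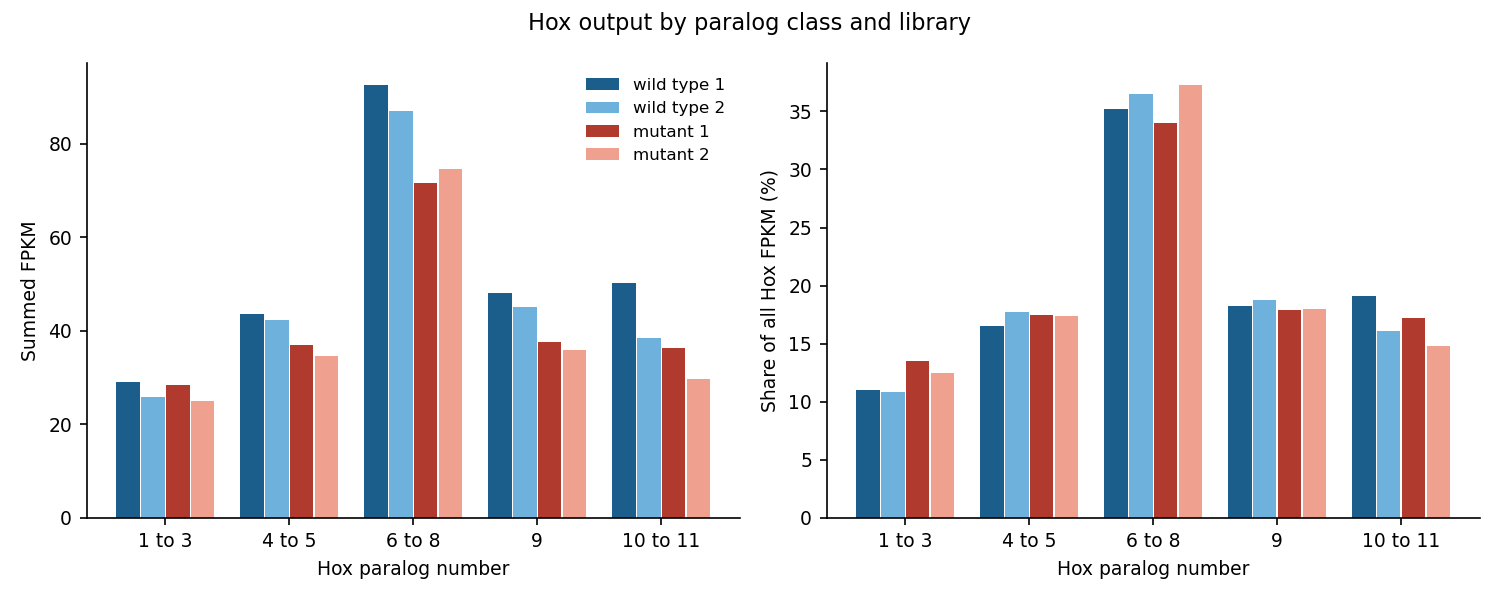
Summed FPKM (left) and share of all Hox FPKM in percent (right) for 5 classes of paralog number; each bar is 1 library and no error is drawn. Paralogs 6 to 8, the class with the most genes, are the tallest in each library. The mutant sums lie below both wild types in every class except 1 to 3.

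Summed over the 29 genes, Hox output was lower in both mutants. It came to 263 and 239 FPKM in the wild types, against 211 and 200 FPKM in the mutants. The means were 251 ± 17.4 and 205 ± 7.80 FPKM (SD, n = 2 each). The groups did not overlap, though an exact two-sided permutation test of 2 against 2 samples cannot go below p = 0.33. By class, the sums of paralogs 6 to 8 were 92.6 and 87.0 FPKM in the wild types against 71.5 and 74.5 FPKM in the mutants, those of paralog 9 were 48.0 and 45 against 37.6 and 35.9 FPKM, and those of paralogs 10 to 11 were 50.3 and 38.5 against 36.2 and 29.6 FPKM. Only paralogs 1 to 3 overlapped among the 5 classes, at 29 and 25.9 against 28.4 and 25.0 FPKM. In bulk RNA, fewer cells of a type and less RNA per cell cannot be told apart.

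The mean paralog number, with each gene weighted by its FPKM, was 6.98 and 6.90 in wild type and 6.79 and 6.74 in the mutants, a small shift toward the head end. The shift depended on which genes were summed. Without Hoxd1, a choice made after its values were seen, the mean paralog number was 7.07 and 7.03 in wild type and 6.99 and 7.04 in the mutants, and the groups overlapped. The share of paralogs 1 to 3 likewise went from 11% and 10.8% in wild type and 13.5% and 12.5% in the mutants to 9.71% and 8.82% against 10.5% and 7.93% without that gene. The difference in mean paralog number, mutant minus wild type, was -0.178 with all genes, -0.039 without Hoxd1 and -0.304 without the most abundant gene of each class.

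Gene by gene, no member passed the test of mutant against wild type. Nor did Prdm12 itself (log2 difference -2.14, limma adjusted p = 0.18), so a failure to pass does not show equal levels. With limma on log2(FPKM + 1), adjusted over 14040 genes, 0 of the 38 members tested had an adjusted p under 0.05, where the percent called over all genes was 0. At an unadjusted p under 0.05, 1 member was higher and 3 were lower, where 1.35% and 3.01% of all genes tested were. Hoxb9 and Hoxc10 were among the lower, and the 1 higher was Hoxd1, which had the smallest adjusted p of a member, 0.904. These counts depended on single libraries. Without wild type 1, 0 Hox genes and 440 of all genes had an unadjusted p under 0.05, and without mutant 2 the counts were 0 and 482. Without wild type 2 they were 4 lower and 1 higher Hox genes among 524 genes, and without mutant 1 they were 6 lower and 1 higher among 1807, where all 4 libraries gave 2 lower and 1 higher among 612. Hoxa11 and Hoxd3 had group means under 1 FPKM and were not tested.

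Most Hox genes had estimates of the same sign. Of 27 tested, 25 had a lower mean log2 value in the mutants and 2, Hoxa4 and Hoxd1, a higher one. The median log2 difference was -0.29 over these 27 genes and -0.005 over all genes tested. In 15 of 27 (55.6%) both mutants lay below both wild types, against 19.6% of all genes tested, and in 2 of 27 (7.41%) both lay above, against 12.5%. With each library left out in turn, the share lying below ran from 66.7% without wild type 1 to 74.1% without mutant 2, where 32.8% to 37.2% of all genes did. Of the 29 Hox genes, 14 had their highest value in wild type 1 and 9 in wild type 2, and 10 had their lowest in mutant 1 and 15 in mutant 2. Genes of 1 cluster lie next to each other and were read in the same libraries, so these counts are not over independent genes.

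**Figure D3:**
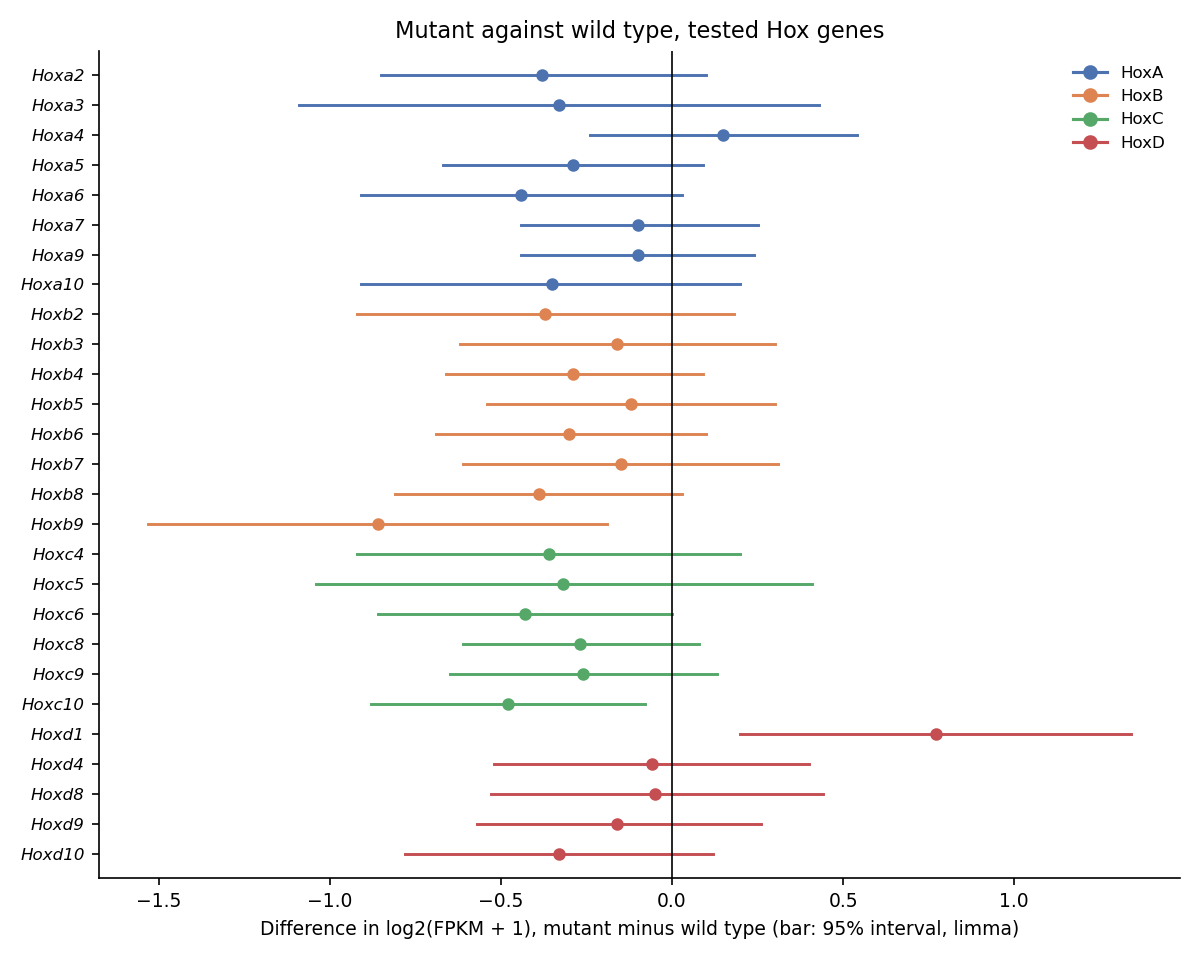
Difference in log2(FPKM + 1), mutant minus wild type, for the 27 Hox genes tested; points are estimates and bars are 95% intervals from limma with 2 samples per group. Most Hox points lie left of 0, Hoxb9 (-0.86) is the lowest and Hoxd1 (0.77) the highest.

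In cluster A, 7 of 8 tested genes had lower mean values in the mutants, with a median log2 difference of -0.31. Hoxa10 measured 31.6 and 23.4 FPKM in the wild types, against 24.2 and 18.3 FPKM in the mutants. Its groups overlapped, since mutant 1 lay above wild type 2. Hoxa6 was at 4.56 and 3.43 against 2.95 and 2.38 FPKM, with both mutants below (log2 difference -0.44). Hoxa5, which is needed for the breathing motor neurons of the neck, was at 11.9 and 11.7 against 10.2 and 8.66 FPKM (-0.29). Hoxa2, which patterns the hindbrain, was at 2.09 and 2.24 against 1.73 and 1.17 FPKM (-0.38). The levels of Hoxa7 and Hoxa9 were also lower without overlap, by 0.10 each on the log2 scale. Hoxa3 overlapped, at 5.38 and 3.95 against 4.89 and 2.38 FPKM. Hoxa4 was higher in both mutants by a small amount, at 1.77 and 1.78 against 2.11 and 2.03 FPKM (log2 difference 0.15).

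In cluster B all 8 genes had lower mean values in the mutants, with a median of -0.29. Hoxb9, at the posterior end of the tested cluster (chromosome 11, 96271457 to 96276595, plus strand, mm10), measured 13.3 and 7.83 FPKM in the wild types, against 5.83 and 4.62 FPKM in the mutants. Both mutants lay below both wild types, and the gap between the 2 wild types was itself wide. The means were 10.6 ± 3.90 against 5.23 ± 0.856 FPKM (SD, n = 2 each), 2.03-fold lower in the mutants. The log2 difference was -0.86 with a 95% interval of -1.53 to -0.19 (limma adjusted p = 0.960). It was -0.51 without wild type 1 and -1.21 without wild type 2. Hoxb9 was the one member among the 150 genes of the authors' deposited table, where its log2 fold change was -1.02 with q = 0.0429. The genes listed as lower in that table made up 0.896% of the matrix.

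The neighbours of Hoxb9 differed less from wild type in the estimates. Hoxb8, a gene whose loss in mice leads to excessive grooming, was at 12.3 and 10.7 against 9.43 and 7.67 FPKM (log2 difference -0.39). Hoxb6 was at 15.2 and 12.9 against 10.6 and 11.8 FPKM (-0.30), and Hoxb4 at 5.45 and 6.03 against 4.24 and 4.80 FPKM (-0.29). These 3 lay lower in both mutants, while Hoxb2, Hoxb3, Hoxb5 and Hoxb7 overlapped. Whether Hoxb9 differed from its neighbours was not tested.

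In cluster C all 6 genes had lower mean values, with a median of -0.34, and 5 did so without overlap. Hoxc10 (chromosome 15, 102966796 to 102971893) measured 16.4 and 13.5 FPKM in the wild types, against 10.6 and 10.0 FPKM in the mutants. The 2 mutants were close to each other and below both wild types, a log2 difference of -0.48 with an interval of -0.88 to -0.08 (limma adjusted p = 0.994). Hoxc6 was at 23.3 and 18.2 against 14.8 and 15.4 FPKM (-0.43). Hoxc8, which acts in motor neurons of the lower forelimb level, was at 9.76 and 10.3 against 8.19 and 8.16 FPKM (-0.27). Hoxc9, which sets thoracic motor identity, was at 13.9 and 15.4 against 13 and 11.1 FPKM (-0.26). Hoxc4 was at 7.34 and 6.61 against 6.58 and 4.11 FPKM (-0.36). Wild type 2 and mutant 1 were nearly level for Hoxc4, and its difference was -0.07 without mutant 2 and -0.64 without mutant 1. Hoxc5 overlapped, at 5.55 and 2.84 against 3.45 and 2.64 FPKM. Its annotated exons overlap those of Hoxc10 on the same strand, so reads of these 2 genes may have been split between them.

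Cluster D had a median log2 difference of -0.06 over 5 tested genes, and whether it differed from the other clusters was not tested. Hoxd1 (chromosome 2, 74762980 to 74765142, plus strand), which in mice acts in pain-sensing neurons and their central wiring, measured 3.78 and 5.29 FPKM in the wild types, against 7.01 and 9.90 FPKM in the mutants. Both mutants lay above both wild types, and the second library was higher in each group. The means were 4.54 ± 1.07 against 8.45 ± 2.05 FPKM (SD, n = 2 each), 1.86-fold higher in the mutants. The log2 difference was 0.77 with a 95% interval of 0.20 to 1.34 (limma adjusted p = 0.904). It ran from 0.55 without mutant 2 to 0.99 without mutant 1. The neuronal marker list had median deviations from the mean of the 4 libraries of -0.34 and 0.13 in wild type 1 and 2 and of -0.21 and 0.41 in mutant 1 and 2, also with the second library higher in each group. For the nociceptor list they were -0.17, 0.27, -0.28 and 0.25 in the same order. The nociceptor list includes Prdm12. For the large-diameter neuron list the deviations were -0.13, 0.14, 0.02 and 0.01. The part of neuron content in the Hoxd1 values was not tested.

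Of the rest of cluster D, Hoxd8 was at 7.54 and 8.97 against 6.80 and 9.24 FPKM, and Hoxd9 at 5.82 and 6.55 against 4.85 and 6.07 FPKM, both with overlap. Hoxd4, at 1.36 and 1.38 against 1.08 and 1.48 FPKM, and Hoxd3, at 0.567 and 0.883 against 0.873 and 1.03 FPKM, overlapped too and share annotated exons. Hoxd10 was lower in both mutants (log2 difference -0.33).

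Sequences upstream of 3 Hox genes are shown because they hold, or lack, the short words that Hox and TALE proteins are known to bind, and because Hoxa2 and Hoxb8 were lower and Hoxd1 higher in both mutants. Each is the 250 bases before the RefSeq start site on GRCm38.p6, read 5′ to 3′ on the gene's strand, with matches in capitals. The motifs were TGATNNAT, a Hox and Pbx word, and TGACAG, a Meis and Pknox word, searched on both strands.
Hoxa2 (chr6:52164832-52165081, minus strand): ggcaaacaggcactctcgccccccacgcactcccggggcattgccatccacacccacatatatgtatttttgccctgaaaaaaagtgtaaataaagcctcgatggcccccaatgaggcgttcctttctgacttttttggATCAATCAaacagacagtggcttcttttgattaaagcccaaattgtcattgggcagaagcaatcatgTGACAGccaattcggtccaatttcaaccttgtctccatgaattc
Hoxb8 (chr11:96281655-96281904, plus strand): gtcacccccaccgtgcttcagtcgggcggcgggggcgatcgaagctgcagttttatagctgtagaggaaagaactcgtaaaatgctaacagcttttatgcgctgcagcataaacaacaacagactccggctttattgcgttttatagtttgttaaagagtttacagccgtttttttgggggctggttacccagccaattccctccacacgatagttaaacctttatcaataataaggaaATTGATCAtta
Hoxd1 (chr2:74762730-74762979, plus strand): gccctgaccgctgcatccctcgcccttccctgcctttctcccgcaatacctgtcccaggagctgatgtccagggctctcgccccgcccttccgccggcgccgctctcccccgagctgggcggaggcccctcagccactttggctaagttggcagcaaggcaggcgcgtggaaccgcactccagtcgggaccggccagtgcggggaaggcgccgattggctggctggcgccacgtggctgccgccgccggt
Hoxa2 held 1 match to each motif, Hoxb8 held 1 match to the Hox and Pbx word, and Hoxd1 held neither in this window. The 3 genes were picked on both motif and direction, so they show no link between these. Hoxa5, Hoxa6, Hoxa7, Hoxa9, Hoxb4, Hoxc4 and Hoxd10 were also lower in both mutants, and their windows held no match to either motif. Whether motif matches went with direction was not tested. Of the 40 members, 23 had an entry in the promoter table, with 24 start sites. TGATNNAT was in 2 of these 24 windows and in 7.68% of all 32851 windows, and TGACAG was in 3 of 24 and in 15.9% of all. CG dinucleotides, which are dense in the promoters of many developmental genes, had a median of 12.5 over the 18 Hox windows and of 6 over all windows, with 24 in the window of Hoxd1, 12 in that of Hoxb8 and 6 in that of Hoxa2.

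The cofactors had estimates of both signs. Of 9 tested, 5 had lower and 4 higher mean values in the mutants, with a median log2 difference of -0.02. In 4 of the 9 (44.4%) both mutants lay below both wild types, against 19.6% of all genes tested. In 2 (22.2%) both lay above, against 12.5%. Pbx2 was nearly level at 14.5 and 14.6 against 14.3 and 14.4 FPKM (-0.02). Pbx3 was at 6.36 and 6.63 against 4.61 and 5.69 FPKM (-0.29). Pbx4 was higher, at 1.79 and 2.48 against 2.91 and 4.04 FPKM, with both mutants above (0.51, with an interval of -0.01 to 1.04).

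Meis3 was the most abundant Meis gene, with 8.73 and 10.8 FPKM in the wild types against 9.85 and 14.3 FPKM in the mutants, with overlap. Meis1 was at 1.47 and 1.57 against 1.57 and 1.79 FPKM, and Meis2, which is needed for touch neurons to form their endings, at 1.25 and 1.63 against 1.5 and 1.7 FPKM. The log2 differences of the 3 Meis genes were 0.09 to 0.27, the highest being that of Meis3, which was 0.02 without mutant 2 and 0.51 without mutant 1. That of Meis2 was -0.02 without wild type 1. Pknox2 was at 9.75 and 9.07 against 8.88 and 8.55 FPKM, a small step down without overlap (-0.10), and Pknox1, the more widely expressed relative, overlapped at 4.95 and 4.01 against 4.83 and 3.63 FPKM. In summed FPKM the 9 cofactors came to 64.2 and 64.1 in wild type and to 60.1 and 63.0 in the mutants.

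Transcripts that run antisense to or between Hox genes were few. Hoxb5os measured 3.33 and 3.68 FPKM in the wild types, against 3.37 and 1.94 FPKM in the mutants, while Hoxa11os was at 1.43 and 0.588 against 0.984 and 0.654 FPKM, both with overlap. Each shares exon positions with a Hox gene on the other strand (Hoxb5 and Hoxa11). In all, 16 of 31 Hox rows overlapped another annotated gene in exon positions, 11 of them on the opposite strand. Library strandedness was not given in the sources, and without it the reads of such pairs cannot be told apart. Hotairm1, a long noncoding RNA at the anterior end of cluster A, was at 35.5 and 27.4 against 24.1 and 52.4 FPKM, with the highest and lowest values both in mutants. Haglr, a noncoding RNA of cluster D, was at 1.60 and 2.32 against 2.35 and 3.08 FPKM (log2 difference 0.33). Hoxaas3 was at 1.14 and 1.19 against 0.411 and 0.856 FPKM (-0.42), and Hoxaas2 at 0.962 and 1.10 against 0.792 and 0.617 FPKM (-0.25).

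Genes outside the clusters gave the surroundings. Over all genes tested, 12.5% were higher and 19.6% lower without overlap, and the counts below are to be read against these shares. Of 17 tested neighbours of the clusters, 2 were higher and 0 lower without overlap, with a median log2 difference of 0.03. Of 24 Polycomb and Trithorax genes, whose products hold Hox genes silent or active, 0 had an unadjusted p under 0.05, 8 were lower and 3 higher without overlap, and the median was -0.04. Phc2 (32.9 and 31.4 against 34.2 and 39.9 FPKM) and Cbx6 (32.1 and 28.3 against 31.3 and 34 FPKM), both parts of Polycomb complexes, were the most abundant of these. The 15 tested genes that can bind or tune Hox proteins had a median of -0.06, with 6 lower and 3 higher without overlap. Of the other TALE homeobox genes 3 were tested, and Mkx was lower at 3.36 and 3.24 against 2.42 and 2.17 FPKM (-0.39). None of these genes passed the adjusted threshold.

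Among the inputs that set Hox domains in the embryo, the retinoic acid genes included the widest differences. Aldh1a2, which makes retinoic acid in the embryonic trunk and is also in the fibroblast and meninges marker list, measured 99.5 and 75.7 FPKM in the wild types, against 27.5 and 18.8 FPKM in the mutants (log2 difference -1.89, limma adjusted p = 0.247). Aldh1a1 was at 113 and 117 against 51.7 and 50.8 FPKM (-1.15), and the retinoic acid binding gene Crabp2 at 78.3 and 46.4 against 32.6 and 16.5 FPKM (-1.34). Egr2, a hindbrain gene that also drives myelination in Schwann cells, was higher at 9.74 and 13.4 against 17.3 and 19.6 FPKM (0.64). Over the 15 tested genes of this list the median was -0.06.

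Markers of other cells moved between the libraries as well. The 14 fibroblast and meninges markers, all with rows, summed to 19800 and 18300 FPKM in the wild types, against 9690 and 6500 FPKM in the mutants. Ptgds, a meningeal prostaglandin synthase gene, was at 13100 and 13100 against 3200 and 3030 FPKM. Most of the gap in the sum came from this gene. Dcn, the next most abundant marker, overlapped at 3460 and 3350 against 3710 and 1900 FPKM. Over the 14 markers the median deviation from the mean of the 4 libraries was 0.48, 0.36, 0.08 and -0.78 in the same order. That of the 29 Hox genes was 0.11, 0.07, -0.05 and -0.18, the same order of libraries. Of these 14 markers 7 were lower and 0 higher without overlap, where 19.6% and 12.5% of all genes tested were. Col1a1 (593 and 269 against 619 and 335 FPKM) and Col3a1 (631 and 367 against 640 and 374 FPKM) overlapped. The blood markers, 8 of 9 with rows, summed to 2830 and 3210 against 5290 and 5020 FPKM, higher in both mutants. Of these 8, 4 were higher and 0 lower without overlap, the same numbers as at an unadjusted limma p under 0.05. At that p, 1.35% of all genes tested were higher and 3.01% lower. The most abundant blood marker, the alpha globin gene Hba-a1, was at 1410 and 1210 against 2570 and 2910 FPKM. The part of connective tissue, meninges and blood in the Hox values was not tested. Schwann cell and myelin markers, 10 of 10 with rows, summed to 10300 and 8210 against 10200 and 21200 FPKM, and 6 of the 10 were higher without overlap. Muscle and adipocyte markers were lowest in mutant 1 and highest in mutant 2, and summed Hox FPKM was below both wild types in both of these libraries. The part of muscle, fat and Schwann cells in the Hox values was not tested either. 

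**Figure D4:**
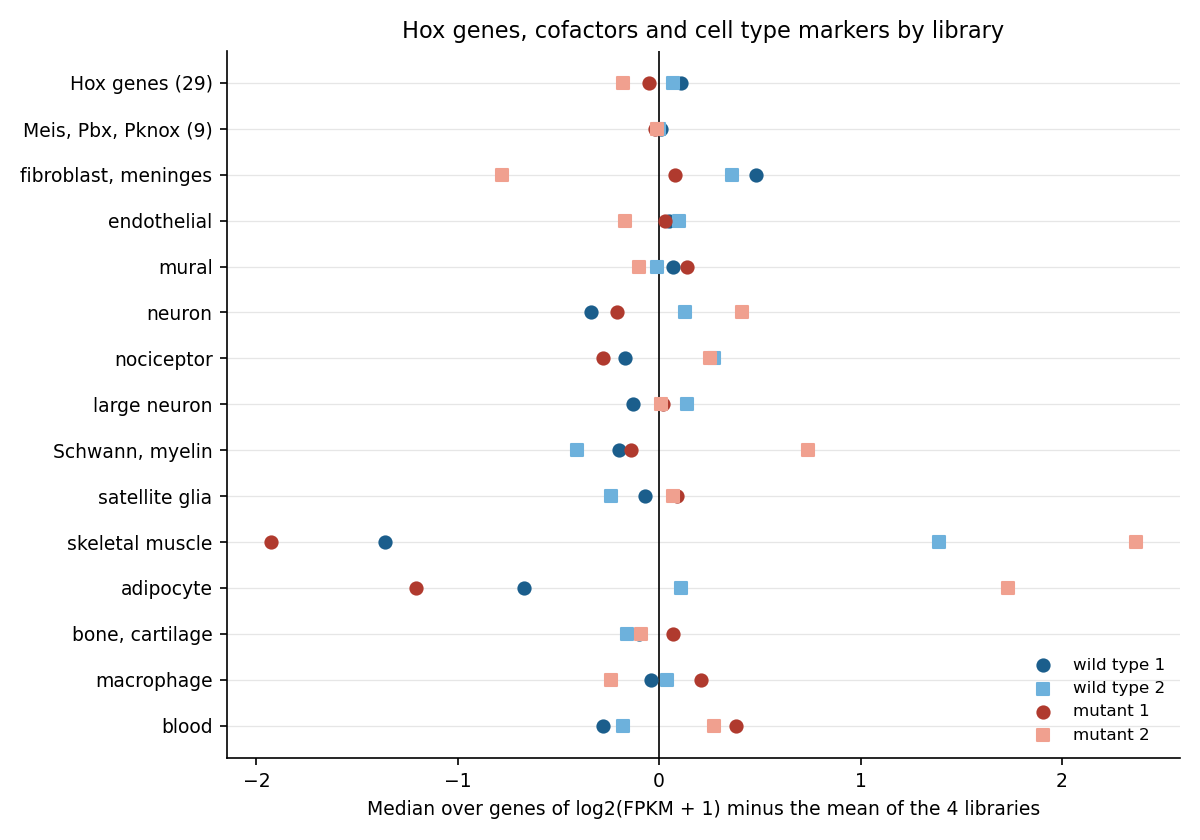
Median over the genes of each list of log2(FPKM + 1) minus the mean of the 4 libraries, for Hox genes, cofactors and 13 cell type marker lists; each point is 1 library. The Hox row and the fibroblast and meninges row run in the same order of libraries, and muscle and adipocyte markers spread most within each genotype. The medians of the cofactors, whose estimates were of both signs, lie within 0.02 of 0.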

How the data were processed

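Bulk RNA sequencing of 2 wild type and 2 mutant samples was analysed from the authors' deposited FPKM matrix. The submitters' processing notes name Cufflinks 2.2.1, TopHat2 2.1.2, CASAVA and the build mm10, without roles or settings. Each row reached at least 1 FPKM in at least 1 sample, tested on the values. Columns were matched to samples by title. A second table that the authors deposited holds their own comparison for the 150 genes past their cuts on FPKM, fold change and false discovery rate. Its deposited log2 fold change and its deposited p-value and q-value are used here for Hoxb9 only. Sequencing depth is unknown, so no counting error is given.

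From the matrix, log2(FPKM + 1) was fitted with limma 3.58.1 (R 4.3.3, trended variance prior) over the 14040 genes whose mean reached 1 FPKM in one group or both, two-sided, with Benjamini-Hochberg adjustment and a threshold of 0.05. The pseudocount shrinks differences of low genes. The fit had 2 residual and 3.44 prior degrees of freedom. The script was tested on simulated data. The labels do not say that samples were separate animals, so p-values measure only sample-to-sample spread, which may be technical between the mutants. The wild types differed in Xist and Ddx3y, so their spread is not technical alone. Hox sums are of FPKM. Coordinates are from GENCODE M21 (GRCm38, the assembly of mm10) and upstream sequences from RefSeq on GRCm38.p6; Python 3.11.15 made the tables. The members and gene lists were chosen with earlier results of these data known. The rule allowed every member to be named; some are not reported here. Of the other pathway genes the rule allowed the 3 most abundant of a list and those with an unadjusted p under 0.05, and of the marker lists the 2 most abundant; the noncoding Hox transcripts are all given, and Col1a1, Col3a1 and Ptgds were named after their values were seen, as were Xist and Ddx3y. Alternatives changed the pseudocount, filter, scaling, variance prior, replicate block and libraries.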

Additional observations from a re-analysis of the deposited data

How the results depend on the processing

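No Hox or cofactor gene passed the adjusted threshold under any of the 11 alternatives run (0 in each), which say little about stability with 2 samples per group. Over all genes 0 passed with limma, and 612 had an unadjusted p under 0.05; with each library left out the number passing ran from 0 to 5, the latter without wild type 1. Replicate numbers are shared between the groups, but nothing in the labels says that they pair the samples. The differences between replicates 1 and 2 of the 2 groups had a Pearson's r of 0.481 across 14040 genes, which are not independent replicates. With a replicate block 61 genes passed, 0 of them members, and Hox genes with an unadjusted p under 0.05 went from 2 to 7 lower, with 1 higher in both fits, while all genes at that threshold went from 612 to 1474. The median log2 difference of Hox genes was -0.32 to -0.27 under the other settings and -0.33 to -0.21 with each library left out. That of the cofactors lay within -0.10 to 0.02. The mutant minus wild type difference in mean paralog number was -0.178 (-0.217 to -0.139 with each library left out), was -0.304 without the most abundant gene of each paralog class, and was -0.039 without Hoxd1, an alternative chosen after seeing the data, as was leaving out libraries for the counts without overlap. Of 404 values of single members under the alternatives, 392 kept their direction and side of the threshold and 12 changed sign. These were Pbx2 with quantile normalization (0.00), Hoxc5 (0.07), Meis2 (-0.02) and Pknox1 (0.05) without wild type 1, Hoxb7 (0.02) and Hoxd8 (0.07) without wild type 2, Hoxd4 (0.07) and Hoxd8 (0.15) without mutant 1, and Hoxa3 (0.07), Hoxb3 (0.04), Hoxa11os (0.02) and Pknox1 (0.09) without mutant 2. Where a library was left out, the lone sample was assumed to vary like the other group; other causes were not tested. With each library left out, the values of these genes ran from -0.73 to 0.07 (Hoxa3), -0.36 to 0.04 (Hoxb3), -0.31 to 0.02 (Hoxb7), -0.70 to 0.07 (Hoxc5), -0.19 to 0.07 (Hoxd4), -0.24 to 0.15 (Hoxd8), -0.02 to 0.21 (Meis2), -0.24 to 0.09 (Pknox1) and -0.42 to 0.02 (Hoxa11os).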
